A study of Mus musculus with 8 samples.

Results

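The epidermal growth factor (EGF) family and its ErbB receptors were followed in endothelial cells (ECs) of the mouse brain with and without mutant MAP2K1. The 9 genes were fixed by name out of 49315 genes counted, with earlier results of these data known. They comprise the receptors *Egfr*, *Erbb2* and *Erbb3* and the ligands *Hbegf*, *Tgfa*, *Areg*, *Ereg*, *Btc* and *Nrg1*. RNA was measured in 4 mutant and 4 wild-type pups, with 1 library per pup. Mutant pups carried the R26GT-Map2k1-GFP/+ allele and the Tg-Cdh5CreER+/- transgene, and wild-type pups were chosen from the same litters. Both strains were backcrossed to C57BL/6J. All pups were injected with tamoxifen on postnatal day 1, and brain ECs were bound to anti-CD31 beads on postnatal day 9. In mutant pups, Cre driven by the EC gene *Cdh5* removes a stop cassette, after which a CAG promoter in the *Rosa* locus drives a *Map2k1* K57N cDNA. Only a minority of the ECs recombine, and mutant ECs below means all bead-bound cells of mutant pups, recombined or not. No group expresses wild-type MAP2K1 from the *Rosa* locus, and the labels do not say whether the controls carry Cre.

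ErbB receptors are tyrosine kinases of the cell surface that signal as pairs, and the MAP2K1 to ERK cascade is a main path of their signal into the cell. Most ligands are made as membrane proteins and are released by metalloproteases of the ADAM family. *Egfr* binds HB-EGF, TGF-alpha, amphiregulin, epiregulin and betacellulin, while *Erbb3* and *Erbb4* bind neuregulins. *Erbb2* has no ligand of its own and serves as the partner of the other receptors.

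Libraries held 24833373 to 34196955 counts on genes in mutant pups and 28146348 to 32208421 in wild-type pups. *Map2k1*, which takes reads from the transgene as well, had 12660 to 18687 normalized counts (scaled by TMM to the mean library size) in mutant and 1502 to 1758 in wild-type libraries. The summed level of 10 EC markers overlapped between the groups, at 10106 to 12108 CPM in mutant and 10768 to 13083 in wild-type libraries. CPM are counts scaled to the library total after its adjustment by TMM. Of these 10 markers, *Pecam1* and *Emcn* rose, *Cldn5*, *Kdr* and *Tek* fell, and 5 did not pass the test. Of 10 astrocyte markers, 2 fell (*Sox9* and *Aldh1l1*), 7 did not pass the test and *Gja1* alone rose, with a list median log2 fold change of -0.49. Summed markers of oligodendrocytes, neurons and blood cells were lower in every mutant library than in any wild-type library. Oligodendrocyte markers had 86.5 to 136 against 154 to 387 CPM, neuron markers 21.6 to 33.1 against 42.6 to 119 CPM, and blood markers 111 to 309 against 561 to 940 CPM. Genes that tissue dissociation can induce were also lower in mutant libraries, with a summed level of 4663 to 7876 against 10092 to 12822 CPM. In bulk RNA, fewer cells of a type and less RNA per cell cannot be told apart, nor can recombined and other ECs.

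Of the 9 genes, 6 had enough counts to be tested and 1 of these changed. *Tgfa* fell in mutant ECs, and *Hbegf*, *Areg*, *Egfr*, *Erbb2* and *Erbb3* did not pass the test (quasi-likelihood F test of edgeR, p adjusted by Benjamini and Hochberg over 16887 genes, threshold 0.05). Over all genes tested, 44.4% passed, and 22.9% passed with a lower level in mutant ECs. The share called among the 6 genes was 16.7%, which is 1 gene, so 6 genes are too few to compare with that background. *Areg*, *Egfr* and *Erbb3* also had few counts. The median log2 fold change of the 6 was -0.26, against -0.02 over all genes tested. *Tgfa* was also the only one of the 6 with no overlap between the groups, which held for 42.5% of all genes tested and, with mutant libraries below, for 21.9%. *Ereg*, *Btc* and *Nrg1* had at most 30 counts in any library and did not pass the filter on low counts.

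**Figure D1:**
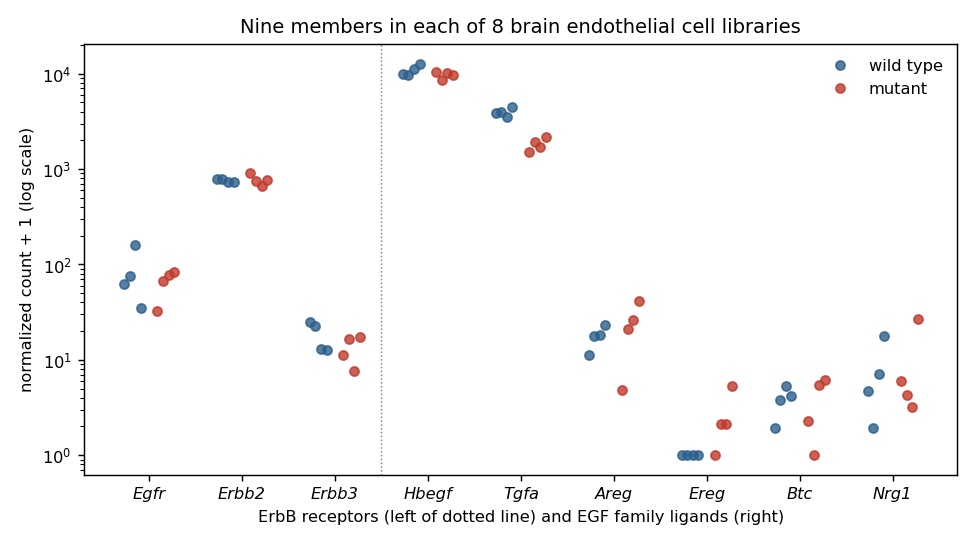
Normalized count plus 1, on a log axis, of the 9 genes in each of the 4 wild-type (blue) and 4 mutant (red) libraries, with 1 point per library. *Hbegf* lies highest, the *Tgfa* points of the groups are apart, and *Ereg* has no count in any wild-type library.

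Compared per kilobase of exon, the genes spanned a wide range of levels, and their order was the same in both groups. *Hbegf* came first, with 155 ± 20.3 CPM per kilobase (SD, n = 4) in wild-type and 138 ± 11.5 (SD, n = 4) in mutant ECs. Its wild-type level per kilobase lay above that of 98.5% of the genes tested. *Tgfa* came next with 20.6 ± 2.08 (SD, n = 4) in wild-type and 9.53 ± 1.54 (SD, n = 4) in mutant ECs, above 85.7% of the genes tested in wild type. *Erbb2* followed with 4.91 ± 0.217 (SD, n = 4) in wild-type and 4.99 ± 0.669 (SD, n = 4) in mutant ECs, above 57.4%. These 3 genes were apart from each other and from the rest in every library. *Areg* and *Egfr* came after them, at 0.461 ± 0.137 and 0.243 ± 0.160 CPM per kilobase (SD, n = 4) in wild-type ECs, and overlapped in both groups. *Erbb3* was lower still, at 0.0970 ± 0.0358 CPM per kilobase (SD, n = 4) in wild-type ECs, where it overlapped with *Egfr*. *Nrg1*, *Btc* and *Ereg* closed the order, each with a wild-type mean of at most 0.0224 CPM per kilobase. The ligand message in these ECs was therefore nearly all *Hbegf* and *Tgfa*, which made up 99.1% to 99.9% of the summed level per kilobase of the 6 ligands in every library.

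*Tgfa* (ENSMUSG00000029999) encodes TGF-alpha, a ligand of EGFR, and lies on chromosome 6, plus strand, at 86195223 to 86275719 of the GRCm38 build. Its 4 wild-type libraries had 3826, 3994, 3535 and 4487 normalized counts, and the 4 mutant libraries 1505, 1938, 1695 and 2186. Every mutant library was below every wild-type library, and the highest mutant value was well under the lowest wild-type value. *Tgfa* thus fell from 3960 ± 399 (SD, n = 4) to 1831 ± 296 (SD, n = 4), which is -1.11 ± 0.12 (standard error) on the log2 scale (adjusted p = 5.79e-05, edgeR). Mutant ECs held 46.3% of the wild-type level, with a 95% confidence interval of 38.6% to 55.4%. Counting only changes beyond 2-fold, *Tgfa* was the only differentially expressed gene of the 9, against 14.0% of all genes tested (5.90% higher and 8.05% lower). The interval spans a 2-fold decrease, and *Tgfa* did not pass a test against a log2 fold change of 1 (glmTreat).

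The decrease was found within each of the 3 prefixes that the sample labels carry. Replicates 1 and 2 share a prefix and gave a difference of -1.19 on the log2 scale, that of replicate 3 gave -1.06, and that of replicate 4 gave -1.04. The last 2 prefixes hold 1 library per group, so these values have no test of their own. When any 1 library was dropped, the *Tgfa* change on the log2 scale ran from -1.18 to -1.004. Oligodendrocyte markers moved in the same direction as *Tgfa*, with 9 of 10 lower in mutant libraries, and 7 of 10 neuron markers, 7 of 12 blood cell markers tested and 8 of 10 dissociation genes were also lower. Of 10 mural markers (pericytes and smooth muscle), 3 rose and 0 fell, and of 10 microglia and macrophage markers 0 were called. Among wild-type libraries, replicate 4 had the highest *Tgfa* value and the lowest summed oligodendrocyte markers, at 154 against 313 to 387 CPM. The part of these markers in the *Tgfa* value was not tested. The exons of *Tgfa* share 118 bases with *Gm43917* on the opposite strand, which had 10 to 36 counts per library, and whether counting used the strand is not given in the sources used here.

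Of 11393 other genes whose mean normalized count reached 100, *Zkscan8*, *Rprd1b* and *Stk38l* followed *Tgfa* most closely over the 8 libraries. Pearson's r of log2 CPM was 0.99 for each, which describes libraries that differ by group in all 4 genes. The log2 fold change was -0.89 for *Zkscan8*, -0.23 for *Rprd1b* and -0.49 for *Stk38l*.

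*Hbegf* (ENSMUSG00000024486) encodes HB-EGF, a heparin-binding ligand of EGFR, and lies on the minus strand of chromosome 18 from 36504929 to 36515805. The 4 wild-type libraries had 9928, 9639, 11166 and 12772 normalized counts, and the 4 mutant libraries 10383, 8537, 10095 and 9644. The groups overlapped, although the 2 highest libraries were wild type. The mean was 10876 ± 1427 (SD, n = 4) in wild-type and 9665 ± 811 (SD, n = 4) in mutant ECs. The log2 fold change of -0.17 (standard error 0.10) did not pass the test (adjusted p = 0.203, edgeR). Its 95% confidence interval, -0.40 to 0.06, leaves room for a level in mutant ECs between 0.759 and 1.04 times that of wild-type ECs.

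Since *Hbegf* and *Tgfa* are counted in the same libraries, their ratio does not depend on how libraries are scaled. Per kilobase, *Hbegf* exceeded *Tgfa* by 7.10, 6.60, 8.64 and 7.78 times in the 4 wild-type libraries. In the 4 mutant libraries it did so by 18.9, 12.05, 16.3 and 12.06 times. The ratio averaged 7.53 ± 0.884 (SD, n = 4) in wild-type and 14.8 ± 3.36 (SD, n = 4) in mutant ECs, and the groups did not overlap. The balance between the 2 abundant ligands of EGFR lay further towards *Hbegf* in mutant ECs.

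**Figure D2:**
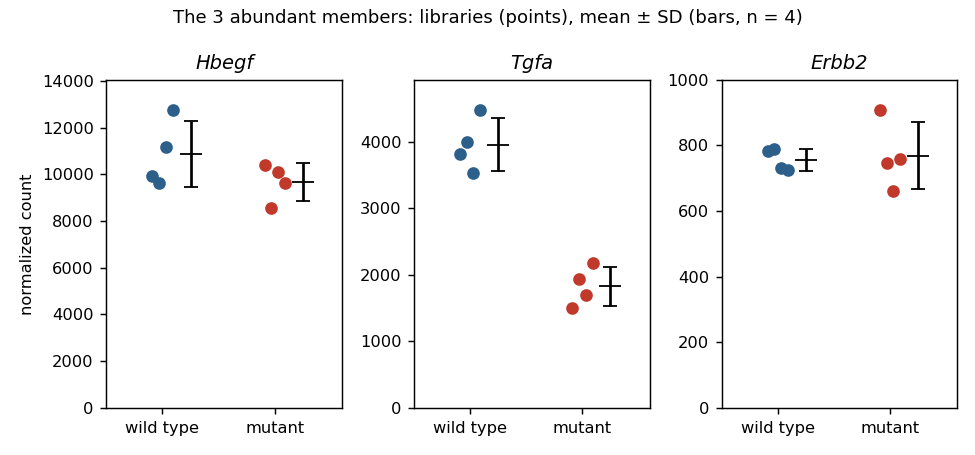
Normalized counts of *Hbegf*, *Tgfa* and *Erbb2* in each library (points) with the mean and SD of each group (bars, n = 4), on axes that start at 0. The groups are apart for *Tgfa*, at 1505 to 2186 in mutant and 3535 to 4487 in wild-type ECs, and overlap for the other 2 genes.

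The other ligands were at or near the limit of detection. *Areg* (ENSMUSG00000029378) encodes amphiregulin, and *Ereg* (ENSMUSG00000029377) encodes epiregulin. Together with *Epgn*, which encodes epigen, and *Btc* (ENSMUSG00000082361), which encodes betacellulin, they form a cluster of 375.5 kilobases on chromosome 5 from 91027464 to 91402994. *Areg* had 11, 18, 20 and 21 counts in the wild-type libraries and 3, 18, 23 and 47 in the mutant libraries. The mutant libraries held both the lowest and the highest value. Its log2 fold change was 0.47 with a 95% confidence interval of -0.67 to 1.62 (adjusted p = 0.484, edgeR), and it was 0.03 without mutant replicate 4 and 0.83 without mutant replicate 1. *Ereg* had no count in the 4 wild-type libraries, which allows up to 3 counts per library, or 0.0874 to 0.107 CPM. The mutant libraries had 0, 1, 1 and 5 counts of *Ereg*, and replicate 4 alone exceeded that floor. Without the filter on low counts, *Ereg* did not pass the test (adjusted p = 0.0798, edgeR), and DESeq2 gave no adjusted p (unadjusted p = 0.147). *Btc* had 1, 3, 5 and 3 counts in wild-type and 1, 0, 4 and 6 in mutant libraries, and *Epgn* had at most 2.21 normalized counts in any library.

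*Nrg1* (ENSMUSG00000062991), on the minus strand of chromosome 8 from 31814551 to 32884029, encodes neuregulin 1, a ligand of ERBB3 and ERBB4. Wild-type libraries had 4, 1, 7 and 16 counts and mutant libraries 4, 3, 2 and 30. In both groups replicate 4 was the highest, and the other libraries had at most 7 counts. *Nrg2*, *Nrg3* and *Nrg4* encode further neuregulins. *Nrg4* had 29.0 to 58.5 normalized counts in mutant and 39.4 to 57.0 in wild-type libraries, and did not pass the test (log2 fold change -0.16, adjusted p = 0.662, edgeR). *Nrg2* had 1.26 to 3.47 normalized counts in mutant and 4.69 to 7.36 in wild-type libraries. Its groups did not overlap, which held for 42.5% of all genes tested. *Nrg3* had at most 6.04 normalized counts in any library, and its groups overlapped. Neither *Nrg2* nor *Nrg3* passed the filter on low counts, so they were not tested.

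Promoter sequences, taken from RefSeq for GRCm38.p6, were matched for 5 of the 9 genes, namely *Egfr*, *Erbb2*, *Areg*, *Tgfa* and *Btc*. The 250 bases before the start site were searched on both strands for the letters TGANTCA (AP-1), TGACGT (CRE) and CGGAAGT (ETS), which are bound by factors that act after growth factor or cAMP signals. Of 32851 such windows, 6.75% hold the AP-1 letters, 6.47% the CRE letters and 4.92% the ETS letters. *Tgfa* is shown because its transcript fell, and *Areg* because it is the only one of the 5 with a match. Bases run 5′ to 3′ up to the start site, and capitals mark the CRE letters, which match on both strands in *Areg* from 61 bases before the start. The *Tgfa* window is chr6:86194972-86195221 and the *Areg* window is chr5:91139349-91139598, both on the plus strand.
Tgfa: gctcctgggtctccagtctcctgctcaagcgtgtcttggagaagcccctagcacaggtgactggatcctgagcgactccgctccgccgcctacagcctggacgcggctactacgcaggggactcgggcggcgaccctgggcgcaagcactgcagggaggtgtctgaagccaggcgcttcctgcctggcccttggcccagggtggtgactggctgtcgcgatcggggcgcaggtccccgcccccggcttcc
Areg: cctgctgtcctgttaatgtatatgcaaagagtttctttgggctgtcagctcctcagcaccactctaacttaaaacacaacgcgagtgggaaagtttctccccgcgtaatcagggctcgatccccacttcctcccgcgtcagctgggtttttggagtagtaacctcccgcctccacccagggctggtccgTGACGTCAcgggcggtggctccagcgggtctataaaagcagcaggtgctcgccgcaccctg
The *Tgfa* window holds none of the 3 motifs, is rich in G and C (69.2%) and has 19 CG pairs. The *Areg* window has 57.2% G and C and 15 CG pairs. A match of letters describes the sequence and is not a measured site.

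Among the receptors, *Erbb2* (ENSMUSG00000062312) was the main transcript and its level was close in mutant and wild-type ECs. It lies on the plus strand of chromosome 11 from 98412470 to 98437716. The 4 wild-type libraries had 782, 789, 731 and 725 normalized counts, and the 4 mutant libraries 909, 748, 661 and 759. The mutant libraries spread to both sides of the wild-type values. The means were 757 ± 33.5 (SD, n = 4) in wild-type and 769 ± 103 (SD, n = 4) in mutant ECs. Their difference was 0.02 on the log2 scale (adjusted p = 0.871, edgeR), with a 95% confidence interval of -0.20 to 0.245. The interval corresponds to 0.871 to 1.19 times the wild-type level, over all bead-bound cells and not recombined ECs alone. *Erbb2* made up 82.7% to 97.2% of the summed level per kilobase of the 4 ErbB receptors in every library. Its exons share 9 bases with *Mien1* on the opposite strand.

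*Egfr* (ENSMUSG00000020122), on the plus strand of chromosome 11 from 16752203 to 16918158, encodes a receptor for both abundant ligands. It was low in these ECs. The 4 wild-type libraries had 60.6, 74.1, 158 and 33.7 normalized counts, and the 4 mutant libraries 31.6, 66.2, 77.4 and 81.6. The groups overlapped, and wild-type replicate 3 was the highest library. The difference was -0.34 ± 0.44 (standard error) on the log2 scale (adjusted p = 0.552, edgeR), and without wild-type replicate 3 it turned to 0.20. The differences within prefixes were -0.55 for replicates 1 and 2, -1.02 for replicate 3 and 1.27 for replicate 4, so they did not share a direction. Wild-type replicate 3 also had the highest summed level of 5 choroid plexus markers, at 608 CPM against 107 to 241 in the other libraries, and of neuron markers. It was highest as well for microglia and macrophage markers, at 438 CPM against 97.0 to 379, and for mural markers, at 1307 CPM against 702 to 1267. Their part in the *Egfr* value was not tested.

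*Erbb3* (ENSMUSG00000018166), on the minus strand of chromosome 10 from 128567523 to 128589652, encodes a receptor for neuregulins with little kinase activity of its own. It had 26, 23, 14 and 11 counts in the wild-type libraries and 8, 14, 6 and 19 in the mutant libraries. The log2 fold change was -0.49 with a 95% confidence interval of -1.34 to 0.37 (adjusted p = 0.331, edgeR). At this depth neither a decrease by more than 2-fold nor an equal level lies outside the interval. The fourth receptor, *Erbb4*, which binds neuregulins and is known from neurons, fell. It had 74.4, 45.0, 166 and 29.5 normalized counts in the 4 wild-type libraries and 7.58, 16.5, 22.1 and 19.1 in the 4 mutant libraries. All mutant libraries were below all wild-type libraries, with a wild-type spread from 29.5 to 166. The change was -2.25 ± 0.54 (standard error) on the log2 scale (adjusted p = 0.00646, edgeR), and without wild-type replicate 3 it was -1.58 (adjusted p = 0.0114). The order of the wild-type libraries for *Erbb4* was close to that of the summed neuron markers, which were 82.6, 42.6, 119 and 45.9 CPM. The part of these markers in the *Erbb4* value was not tested.

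**Figure D3:**
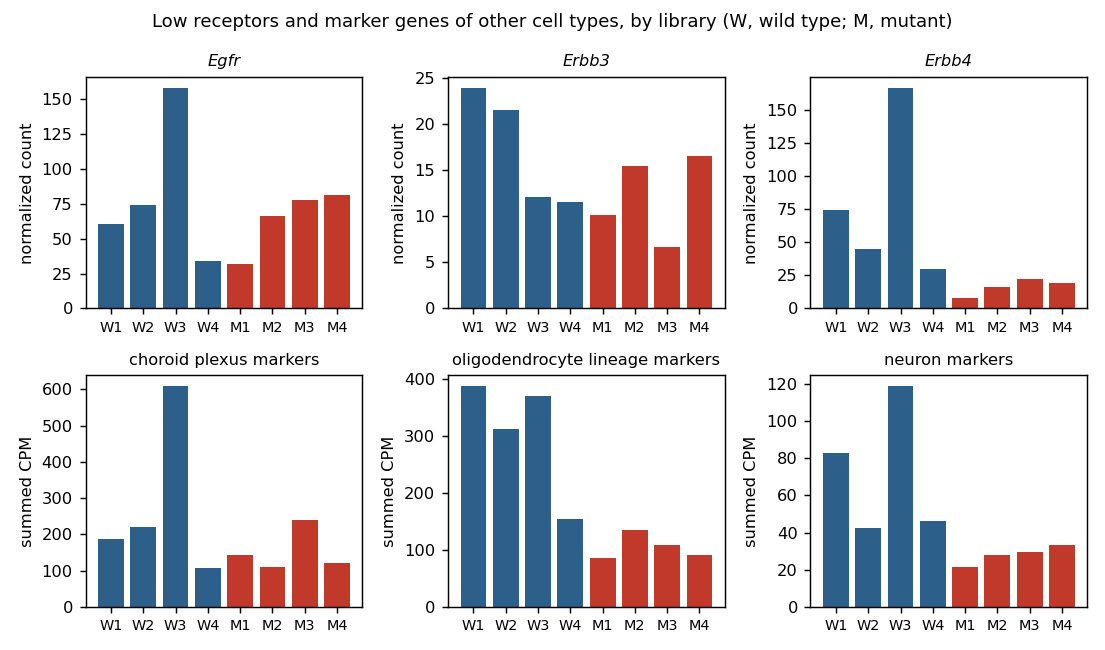
Normalized counts of *Egfr*, *Erbb3* and *Erbb4* (top) and summed CPM of markers of the choroid plexus, oligodendrocytes and neurons (bottom) in each wild-type (W, blue) and mutant (M, red) library. *Egfr* and *Erbb4* are highest in W3, where choroid plexus markers (608 CPM) and neuron markers (119 CPM) are highest too.

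Around the receptors and ligands, 71 further genes of the pathway were listed by role, of which 67 were tested. In mutant ECs, 26 rose, 21 fell and 20 did not pass the test, so 70.1% were called. Over all genes tested, 44.4% were called, 21.5% higher and 22.9% lower, which is the background for each list below. The listed genes had a median log2 fold change of -0.01, against -0.02 over all genes tested. By the 2-fold limit, 8 were higher and 4 lower, where all genes tested had 5.90% higher and 8.05% lower. Against a log2 fold change of 1 (glmTreat), 8 of the listed genes passed. The lists were chosen with earlier results of these data known. No set test was run, and these counts describe the lists only.

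Of the 6 genes that complete the family (*Egf*, *Epgn*, *Nrg2*, *Nrg3*, *Nrg4* and *Erbb4*), 3 were tested and 2 fell. Besides *Erbb4*, this was *Egf*, which encodes EGF itself. *Egf* had 37.7, 29.1, 34.5 and 42.1 normalized counts in wild-type and 27.8, 14.3, 21.0 and 21.7 in mutant libraries, so the groups did not overlap. Its log2 fold change was -0.76 (adjusted p = 0.038, edgeR). The adjusted p was 0.0618 to 0.0943 without mutant replicates 2, 3 or 4 or wild-type replicates 1, 3 or 4, which left *Egf* above the threshold. It was 0.061 with DESeq2 and 0.0947 without the filter on low counts, so 8 of 16 alternatives lost the call. The log2 fold change ran from -0.88 to -0.61 over all 16.

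Genes that act on the release of ligands comprised 13 genes, of which 5 rose, 4 fell and 4 did not pass the test. *Adam12*, which encodes a metalloprotease that can release HB-EGF and EGF, rose most. It had 200, 239, 235 and 250 normalized counts in the wild-type libraries and 1657, 1595, 1405 and 1736 in the mutant libraries. *Adam12* thus rose 6.91-fold, or 2.79 ± 0.10 (standard error) on the log2 scale (adjusted p = 1.31e-07, edgeR). *Adam19*, a protease that can cut neuregulins, rose 4.16-fold, with 583 ± 28.3 (SD, n = 4) in wild-type and 2427 ± 361 (SD, n = 4) in mutant ECs. *Timp3*, which encodes an inhibitor of ADAM proteases, rose 3.35-fold from 4080 ± 88.9 to 13667 ± 2364 (SD, n = 4). *Frmd8*, whose product holds ADAM17 and its iRhom partners at the cell surface, rose 2.42-fold from 1285 ± 49.6 to 3108 ± 495 (SD, n = 4). For all 4 genes the lowest mutant value exceeded the highest wild-type value.

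In the other direction, *Rhbdf1*, which encodes iRhom1, fell with a log2 fold change of -0.76 (adjusted p = 2.11e-04, edgeR), and *Rhbdl2*, which encodes a rhomboid protease, fell by 0.69 on the log2 scale (adjusted p = 9.71e-04). *Adam17*, the main sheddase of TGF-alpha and HB-EGF, is named here for that role after its values were seen. It had 3016 to 3242 normalized counts in mutant and 3049 to 3508 in wild-type libraries and did not pass the test (log2 fold change -0.09, adjusted p = 0.279, edgeR). Scaling to total counts or by upper quartiles put it past the threshold, at -0.15 and -0.16. Proteases of the list thus moved in both directions. *Adam9*, with *Adam12* and *Adam19*, was higher (log2 fold change 0.91), whereas *Adam10* (-0.28, adjusted p = 0.0202) and *Bace1* (-0.26, adjusted p = 0.0268, edgeR) were lower, as was *Rhbdl2*. The adjusted p rose to as much as 0.063 for *Adam10* without mutant replicates 3 or 4 or wild-type replicates 1 or 2. For *Bace1*, 8 of 17 alternatives lost the call, 6 of them by leaving out 1 library (any but mutant replicate 2 and wild-type replicate 4), with an adjusted p of up to 0.0946.

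Of the 16 genes that restrain ErbB receptors, 15 were tested, and 9 rose, 1 fell and 5 did not pass the test. Over all genes tested, 21.5% rose and 22.9% fell. *Errfi1* encodes MIG6, which binds the kinase domain of ErbB receptors and blocks it. The 4 wild-type libraries had 7339, 7831, 9635 and 9432 normalized counts, and the 4 mutant libraries 18575, 16616, 19001 and 17627. *Errfi1* thus rose 2.10-fold, or 1.07 ± 0.10 (standard error) on the log2 scale (adjusted p = 3.11e-05, edgeR). *Cblb*, a ubiquitin ligase that marks active receptors for degradation, rose 3.27-fold, with 764 ± 56.2 (SD, n = 4) in wild-type and 2498 ± 554 (SD, n = 4) in mutant ECs. *Lrig2*, a membrane protein with leucine-rich repeats, was the 1 gene that fell, with a log2 fold change of -0.62 (adjusted p = 2.09e-04, edgeR). *Ptprj*, a receptor phosphatase, had a log2 fold change of -0.53 and did not pass the test (adjusted p = 0.08, edgeR).

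Of the 26 adaptors and effectors that bind ErbB receptors, 8 rose, 11 fell and 7 did not pass the test. *Grb7*, an adaptor that binds ERBB2, fell most. It had 655, 538, 577 and 685 normalized counts in wild-type and 92.2, 169, 145 and 101 in mutant libraries. Mutant ECs thus had a level 4.84-fold lower, -2.28 ± 0.19 (standard error) on the log2 scale (adjusted p = 1.51e-05, edgeR). *Grb7* starts 8.7 kilobases after the end of *Erbb2* on chromosome 11, and *Erbb2*, as given above, did not pass the test. *Shc3*, an adaptor best known from neurons, fell 2.78-fold from 125 ± 10.9 to 44.7 ± 5.86 (SD, n = 4). *Src*, a tyrosine kinase, was 2.04-fold lower, at 1632 ± 312 against 3333 ± 248 (SD, n = 4). *Vav3*, a guanine nucleotide exchange factor, rose 3.77-fold from 172 ± 11.3 to 650 ± 131 (SD, n = 4). *Pik3r1*, a regulatory subunit of PI3 kinase, rose with a log2 fold change of 0.66 (adjusted p = 7.81e-05, edgeR). *Pik3r3*, another regulatory subunit of the list, fell with a log2 fold change of -0.55 (adjusted p = 0.00109, edgeR).

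Among 10 surface partners of ligands and receptors, 4 rose, 3 fell and 3 did not pass the test. *Cd9*, a tetraspanin that binds the membrane form of HB-EGF, rose 2.54-fold, with 1556 ± 200 (SD, n = 4) in wild-type and 3955 ± 444 (SD, n = 4) in mutant ECs. *Cd82*, another tetraspanin, rose with a log2 fold change of 0.83 (adjusted p = 9.54e-05, edgeR). *Itgb4*, an integrin subunit that works with *Erbb2* in epithelia, fell by 0.89 on the log2 scale, and *Gpc1*, a heparan sulfate proteoglycan, fell by 0.95 (adjusted p = 3.82e-04 and 4.19e-04, edgeR).

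**Figure D4:**
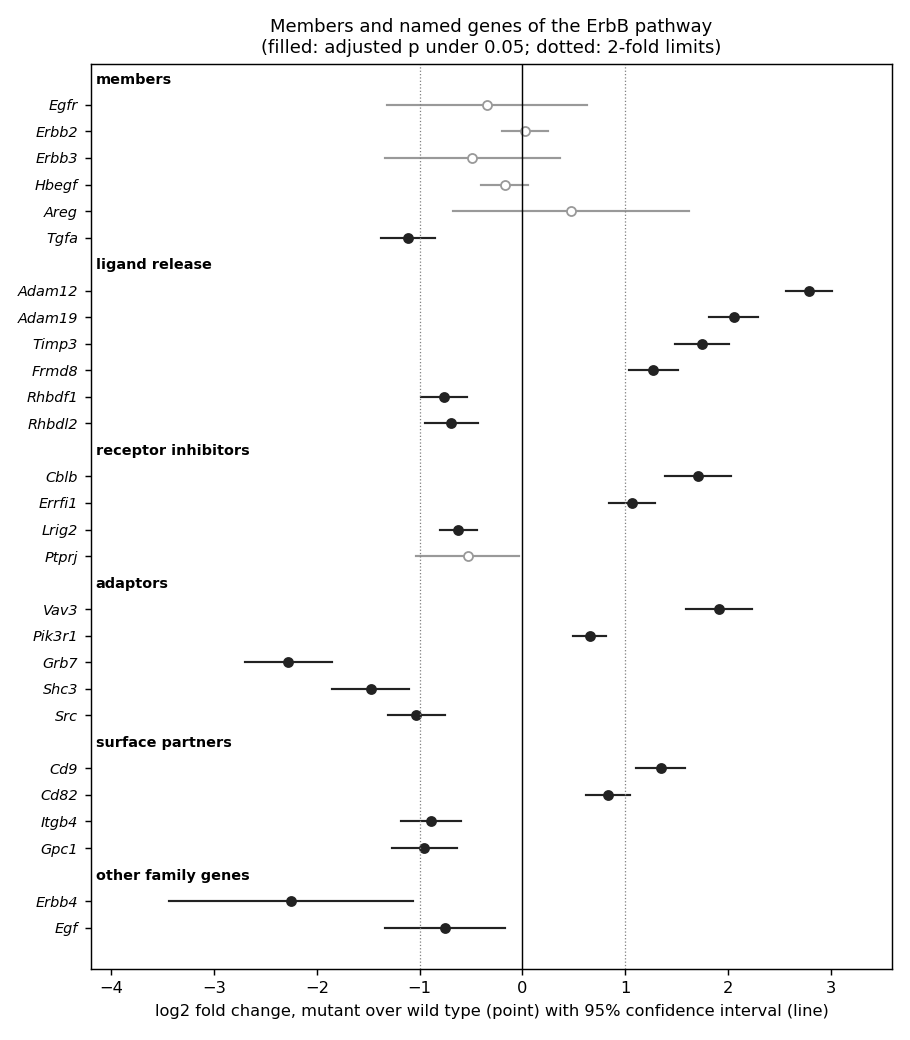
Log2 fold change of mutant over wild-type ECs (points) with its 95% confidence interval (lines) for the 6 tested genes of the family and the named genes of 5 pathway lists. Filled points passed an adjusted p of 0.05 and dotted lines mark 2-fold changes. *Tgfa* is the only filled point among the 6, while *Adam12* (2.79) and *Grb7* (-2.28) lie furthest to each side.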

How the data were processed

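RNA of bead-bound brain ECs was sequenced from poly(A) libraries, 1 for each of 4 mutant and 4 wild-type pups. The authors used Trimmomatic for trimming and STAR for alignment to GRCm38, and deposited unnormalized counts per gene, with exon lengths. The counting program, annotation release and use of strand are not given in the sources used here. A second deposited set, counts divided by a DESeq2 size factor, was not used.

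Of 49315 gene identifiers, 48970 matched a symbol (GENCODE vM21). The primary model for the counts was edgeR 4.0.16 (R 4.3.3) with TMM scaling, filterByExpr (minimum count 10), glmQLFit and glmQLFTest without covariates. The limits were an adjusted p under 0.05 and, for differentially expressed genes, an absolute log2 fold change over 1, as in the study. Confidence intervals are at 95% from the same fit. Levels compared between genes are CPM per kilobase of exon. The procedure was tested on simulated data, in which only genes above the median level were changed. Those changes were larger than that of *Tgfa*, so the simulation did not cover smaller changes or genes of low counts. Libraries of a group differed by more than sampling noise (chi-square per degree of freedom 7.31 to 41.6 over 12 pairs). Floors of 3 counts cover counting error only.

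Genes named outside the 9 are all listed pathway genes past both limits, otherwise up to 2 per list and direction by p, and the 3 genes most correlated with each differentially expressed member. *Adam9*, *Adam10*, *Adam17*, *Bace1*, *Epgn*, *Nrg2*, *Nrg3*, *Nrg4* and *Pik3r3* were added after their values were seen. The members and lists were chosen with earlier results of these data known. Alternatives were DESeq2 1.42.0, other scalings, filters and thresholds, blocks, and each library left out. No protein sequence was used.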

Additional observations from a re-analysis of the deposited data

Results flagged for a closer look

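*Nrg1* in mutant ECs was flagged because 1 library stood far from the others of its group. Mutant replicate 4 had 26.0 normalized counts (30 counts) and the other 3 mutant libraries 2.21 to 5.05. The gap between the highest library and the next was 0.881 of the range of the 4 libraries, above Dixon's 95% critical value for 4 samples. Of the 18 groups of 4 libraries examined, this was the only one beyond that value, and chance flags about 1 in 20. Wild-type replicate 4, which shares the label prefix, was the highest of its group as well, with 16.8 normalized counts.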

How the results depend on the processing

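*Tgfa* was called under every alternative that kept the test (log2 fold change -1.18 to -1.004, highest adjusted p 3.47e-04 over 17 settings of edgeR and DESeq2), and no other member was called in any of them. Against a log2 fold change of 1 (glmTreat), 0 members passed in edgeR, and 0 had an unadjusted p under 0.05. For *Tgfa* the adjusted p of that edgeR test was 0.649. The log2 fold change of *Egfr* ranged from -0.60 to 0.20 over left-out libraries. That of *Erbb2* ranged from -0.042 to 0.096, and was -0.042 with upper quartile factors and -0.035 with total counts only. Among all genes, an adjusted p under 0.01 left 4976 of 7504 calls, and differentially expressed genes fell from 2356 to 1520 with a minimum count of 50 and to 736 with glmTreat. The label prefixes are shared by both groups (replicates 1 and 2, replicate 3, replicate 4), and the study matched wild-type to mutant pups within litters, but no source used here says that a prefix or number marks a litter. Same-numbered deviations correlated at 0.024 to 0.29, over 0.1 in 3 of 4 pairs, and not every library correlated best with its own number. With the replicate number as a block, 8162 genes, 28 higher and 22 lower pathway genes and 1 member were called, with *Tgfa* at -1.12 (adjusted p = 3.41e-05). With the label prefix as a block, the counts were 8610, 29, 22 and 1, with *Tgfa* at -1.12 (adjusted p = 2.14e-05). Neither block changed the call of a member. Over 18 alternatives, 21 to 29 pathway genes were higher and 14 to 23 lower. The 14 came without mutant replicate 4 and at an adjusted p under 0.01. Of 814 values for 48 pathway genes under the alternatives, 61 lost the call, 2 gained it and 0 changed direction. No scaling moved the median of all genes by over 0.1. The few counts limit *Areg*, *Erbb3*, *Ereg*, *Btc* and *Nrg1*. P-values set the difference between the groups against the spread between libraries, with 1 library per pup.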
